A study of Mus musculus with 6 samples.

Results

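Cells divide by a shared set of proteins, and the transcripts of 49 mouse genes for mitosis and chromosome segregation were followed here in inflamed skin with and without macrophage depletion. The genes were chosen by name from a list of mitotic regulators, kinetochore and spindle proteins. This list and all further lists were drawn up with earlier results of these data known. The shares called in them are therefore descriptions and no independent test. All 49 were found among the 55487 genes of the deposited count table, and all 49 passed the filter on low counts. The study sequenced polyadenylated RNA of whole dorsal mouse skin on day 2 of treatment with DPCP (diphencyprone), a chemical that elicits contact allergy where it is painted on skin, and its title concerns macrophages and hair regrowth. Both groups received DPCP. In one group, clodrosome (spelled Codrosome in the labels) was added, liposomes that carry clodronate and kill the phagocytes that take them up. The control group was given encapsome, empty liposomes of the same kind. Each group has 3 libraries, here lettered A, B and C by table column, and the letters pair nothing. The labels used here give no strain, age, sex, dose or route, and do not say whether each library is a separate animal, so the p-values capture variation among these 6 libraries, which may be technical.

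Total counts were 116965654 in clodrosome library A and between 26649396 and 35566351 in the other 5 libraries. The deposited counts tally both ends of each fragment, so they are about double the number of fragments. The lowest count of any of the 49 genes in any library was 321. Levels are given as CPM (counts scaled for library depth with edgeR's TMM factors), and as RPKM (CPM per kilobase of exon) where genes are compared with each other. A gene is called higher or lower where the Benjamini-Hochberg adjusted p of edgeR's quasi-likelihood test, adjusted over all 17988 tested genes, is under 0.05. Log2 fold changes are positive where clodrosome is higher and carry a standard error (SE). Another division of the libraries followed treatment only in part, with 2 clodrosome and 1 encapsome library on its lower side. The percentage of counts from rRNA genes was 0.334% to 0.481% in encapsome A and clodrosome A and C, and 0.788% to 0.845% in clodrosome B and encapsome B and C. The labels name no batch.

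In mitosis, CDK1 bound to cyclin A or cyclin B drives entry, the kinetochores attach chromosomes to spindle microtubules, and the spindle assembly checkpoint holds back the anaphase-promoting complex (APC/C) until attachment is complete. The APC/C with its activator Cdc20 then has securin and cyclin B destroyed, the sister chromatids part, and the central spindle guides cytokinesis. In skin, dividing cells lie mainly in the basal layer of the epidermis and in growing hair follicles, and the epidermis divides more after irritation. Many of these genes are transcribed together late in the cell cycle: the MuvB complex binds a promoter element called the CHR, represses the genes in resting cells as part of the DREAM complex, and activates them with B-MYB (Mybl2) and FOXM1 in dividing cells. NF-Y binds CCAAT boxes in the same promoters.

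The promoters show which of these elements the 49 genes share. RefSeq promoter windows on GRCm38.p6, from 250 bases before to 50 bases after the transcription start, were at hand for 40 of the genes. Searched on both strands were the CHR as TTTGAA or TTTAAA, the CCAAT box as CCAAT and an E2F site as GGCGGGA or GGCGCGA, and these motifs do not contain one another. The CHR letters were in 33 of the 40 windows (82.5%), against 27.8% of 27025 promoter windows of the same length. CCAAT was in 28 (70%) against 37.9%, and an E2F match was in 11 (27.5%) against 13.9%. A CHR and a CCAAT match together were in 65% of the members' windows and in 10.9% of all windows. Of the 49 CHR matches, 39 were TTTGAA. A CHR match from position -60 to the end of the window, a bound chosen after the positions were seen, was present in 29 of the 40 (72.5%) and in 9.04% of all windows. A letter match is a description and not a binding site. The 6 stretches that follow are the 120 bases before the RefSeq start, 5′ to 3′ in the direction of the gene, with matches in capitals. A match on the other strand reads there as its reverse complement, which is TTCAAA for the CHR. For the CCAAT box it is ATTGG. For the E2F match of Ckap2l it is TCCCGCC. Cdc20, Kif11 and Top2a carry the usual pair of CCAAT and CHR and were called higher. Ckap2l holds all 3 motifs in the stretch shown, and Plk1 holds CHR and CCAAT but was not called. Mybl2 has an E2F match without a CHR or CCAAT match and was called with the highest fold change of the members.
Cdc20: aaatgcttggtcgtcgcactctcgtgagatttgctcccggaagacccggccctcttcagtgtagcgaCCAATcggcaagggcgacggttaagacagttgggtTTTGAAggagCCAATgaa
Kif11: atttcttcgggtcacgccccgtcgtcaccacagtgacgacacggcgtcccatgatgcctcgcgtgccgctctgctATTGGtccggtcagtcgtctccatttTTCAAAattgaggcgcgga
Top2a: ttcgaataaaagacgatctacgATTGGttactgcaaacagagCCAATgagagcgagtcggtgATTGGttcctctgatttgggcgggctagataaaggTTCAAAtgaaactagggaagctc
Ckap2l: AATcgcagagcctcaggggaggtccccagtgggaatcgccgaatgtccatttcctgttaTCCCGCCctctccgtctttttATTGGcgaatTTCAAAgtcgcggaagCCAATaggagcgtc
Plk1: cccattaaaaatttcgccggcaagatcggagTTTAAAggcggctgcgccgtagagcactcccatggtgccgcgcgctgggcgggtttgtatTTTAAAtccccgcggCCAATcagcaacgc
Mybl2: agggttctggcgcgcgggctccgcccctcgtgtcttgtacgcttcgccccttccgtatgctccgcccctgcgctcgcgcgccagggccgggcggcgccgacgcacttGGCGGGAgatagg

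The stretches lie at chr4:118437344-118437463 on the minus strand for Cdc20, chr19:37376262-37376381 on the plus strand for Kif11 and chr11:99024190-99024309 on the minus strand for Top2a. Those of Ckap2l, Plk1 and Mybl2 are chr2:129297213-129297332 on the minus strand, chr7:122159315-122159434 on the plus strand and chr2:163054515-163054634 on the plus strand. Positions count the first base before the start as -1. Of the CHR matches before the start, the one nearest to it began at -18 in Cdc20, -19 in Kif11, -23 in Top2a, -30 in Ckap2l and -29 in Plk1. Plk1 has 2 other CHR matches, at -89 and 31, Top2a has another at -179, and Ckap2l has another at 42. The Top2a window also has an E2F match at -168, outside the stretch shown, and so holds all 3 motifs too. A CCAAT match began upstream of the nearest CHR at -53, -45, -58 and -40 in the first 4, whereas in Plk1 it lay downstream at -14. The AAT at the left end of the Ckap2l stretch closes a CCAAT that begins at -122. Mad2l1, Nuf2, Nusap1 and Pttg1 had no match of the 3 motifs in their windows, and none of these 4 genes was called. However, the Mad2l1 window ends at 66535270, before the counted gene begins at 66535390. The Pttg1 window (43425932-43426231) lies inside the counted gene (43420250-43426251). For these genes the window may miss the promoter in use. Windows with matches can be displaced too. The Cdca8 window (124936868-124937167), with CHR and CCAAT matches, lies inside the counted gene (124918465-124939311). The Kif2c window (117178723-117179022), with CHR matches, lies inside its counted gene (117159639-117182639). The Mybl2 window ends at 163054684, before the counted gene begins at 163054687. Matches in such windows may likewise lie outside the promoter in use. The CHR letters were in 14 of the 17 called members with a window and in 19 of the 23 members that were not called.

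As a group, the mitosis genes were modestly higher with clodrosome. EdgeR called 18 of the 49 higher (36.7%), against 9.41% of all 17988 tested genes, with folds from 1.17 to 1.48. None was called lower, against 13.0% of all tested genes, and 0 members had a lower level at an unadjusted p under 0.05. DESeq2 called 14 higher and 0 lower, and limma-voom 18 and 0. The log2 fold change was positive for 48 of the 49 and negative for Cdkn3, and its median was 0.23 (range -0.10 to 0.57), beside 0.01 over all tested genes. All 3 clodrosome libraries stood above all 3 encapsome libraries for 31 members (63.3%), against 19.5% of all tested genes. All 3 stood below for 0 members, against 20.7% of all tested genes. The 31 comprise the 18 called members and 13 that were not called, and 26 members had an unadjusted p under 0.05. In whole skin, more dividing cells and more mitotic RNA per dividing cell cannot be told apart.

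**Figure D1:**
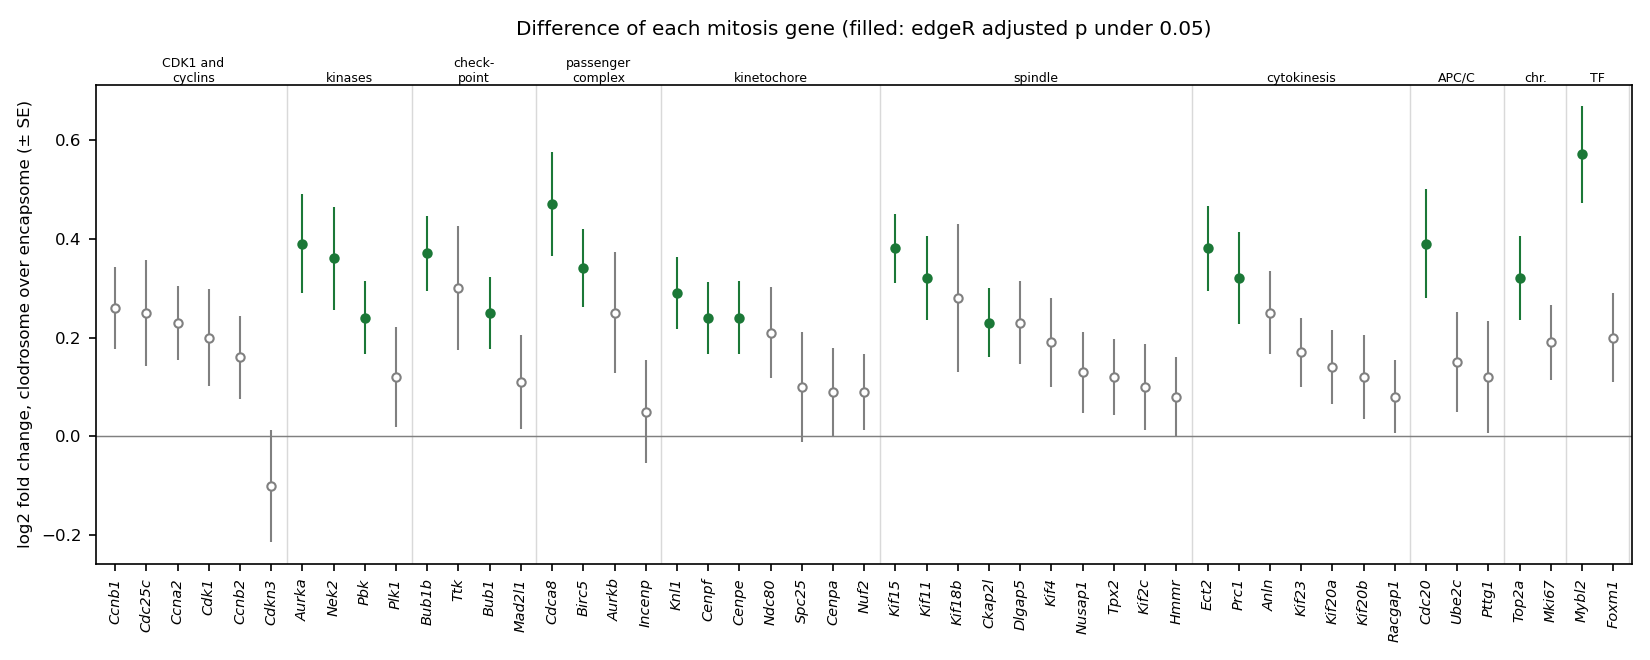
Log2 fold change of each of the 49 mitosis genes, clodrosome over encapsome, with its SE from edgeR over 3 libraries a group; genes are grouped by role and filled points are called. All points except that of Cdkn3 lie above 0, and the 18 filled points lie between 0.23 and 0.57.

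The number of calls depended on single libraries. Without encapsome B edgeR called 3 members (Bub1b, Kif15 and Mybl2), without encapsome C 4, without clodrosome C 8, without clodrosome A 10, without encapsome A 12 and without clodrosome B 14. Over those fits the members' median log2 fold change stayed between 0.19 and 0.24, and 47 or 48 of the 49 had a positive value. Bub1b, Kif15 and Mybl2 were called under each of the 13 alternative settings tried. Within the 3 libraries of lower rRNA share (2 clodrosome, 1 encapsome) the mean was higher with clodrosome for 41 of the 49 genes, with a median log2 ratio of 0.13. Within the 3 of higher rRNA share (1 clodrosome, 2 encapsome) it was higher for 49 of 49, with a median of 0.30. In each of these sets 1 group has a single library, and the members vary together across libraries. The same counts over all tested genes were not made, so these are descriptions. A fit with a term for that split, added after seeing the data, called 19 members higher, 16 of them among the 18.

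**Figure D2:**
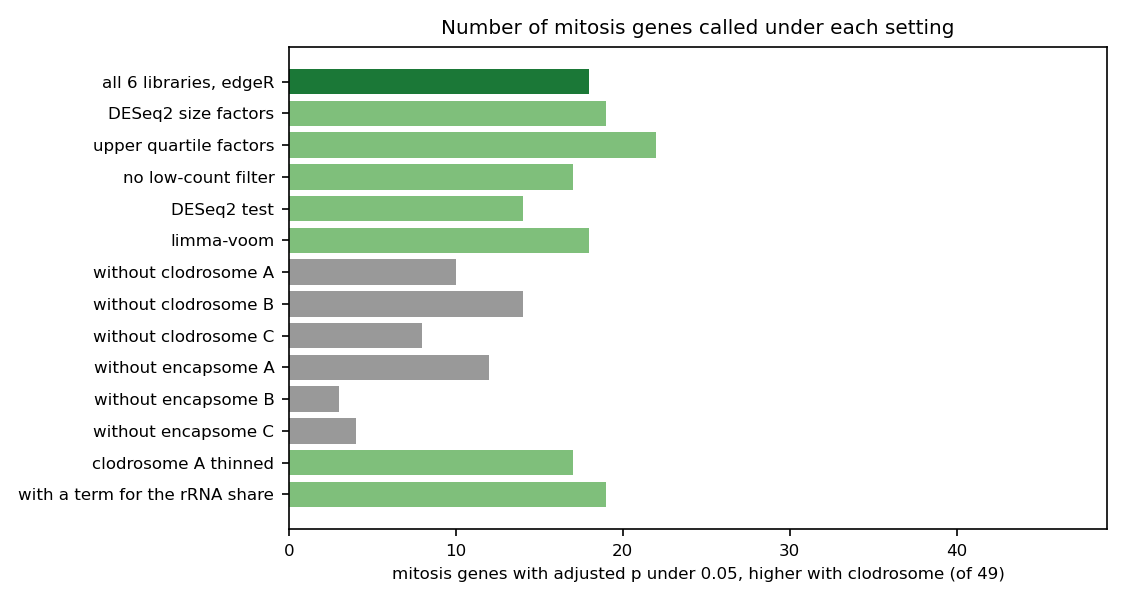
Number of the 49 mitosis genes called higher with clodrosome (x axis, of 49) with all 6 libraries and under each alternative setting; grey bars leave out 1 library. The count is 18 with all libraries, 14 to 22 under other tools and scalings, and 3 without encapsome B.

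The counts by role that follow rest on few genes each and stand beside 9.41% of all tested genes called higher. For 19.5% of all tested genes, every clodrosome library was above every encapsome library. Of the 6 genes for CDK1, its cyclins and phosphatases, edgeR called none, although 3 had an unadjusted p under 0.05. In 4 of them all clodrosome libraries were above all encapsome libraries. DESeq2 and limma-voom each called 1 of them, Ccnb1. The median log2 fold change of the 6 was 0.21. Ccnb1 (ENSMUSG00000041431, chr13:100778650-100786570), which encodes cyclin B1, the main mitotic partner of CDK1, was at 116, 133 and 115 CPM in clodrosome A, B and C and at 106, 94.9 and 103 CPM in encapsome A, B and C. Every clodrosome library exceeded every encapsome library, with clodrosome B the highest. The log2 fold change of Ccnb1 was 0.26 ± 0.0835 (SE, n = 3 a group), and its edgeR adjusted p was 0.0518, just outside the threshold. It was called with DESeq2 size factors (adjusted p = 0.0474) and under 6 further settings that kept all 6 libraries. Ccna2 (ENSMUSG00000027715, chr3:36564865-36572150), which encodes cyclin A2 of S phase and early mitosis, stood at 88.8, 99.7 and 87.5 CPM with clodrosome and 80.4, 78.8 and 76.7 CPM with encapsome. The groups again did not overlap, at 0.23 ± 0.0744 and an edgeR adjusted p of 0.0568 (0.0312 with upper quartile factors and 0.0364 with the term for the rRNA share). Of its exonic bases, 12.5% are shared with Exosc9 on the other strand, where reads of either gene were not counted.

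Cdk1 itself, the mitotic kinase, had a log2 fold change of 0.20 with an edgeR adjusted p of 0.172, and its groups overlapped, with encapsome C at 105 CPM beside clodrosome C at 105 CPM. With a term for the rRNA share its adjusted p was 0.0398. Ccnb2, cyclin B2, had a log2 fold change of 0.16. Cdc25c (ENSMUSG00000044201), a phosphatase that removes the inhibitory phosphates of CDK1, had the lowest level of all members, at 2.86 RPKM. It measured 14.4, 16.9 and 14.7 CPM with clodrosome and 13.6, 12.7 and 12.2 CPM with encapsome, groups that did not overlap, at 0.25 ± 0.107 and an edgeR adjusted p of 0.121. Cdkn3 (ENSMUSG00000037628, chr14:46760541-46771669), a phosphatase that dephosphorylates cyclin-dependent kinases, was the member with a negative value. Its levels were 14.3, 16.6 and 15.6 CPM with clodrosome and 17.5, 14.5 and 17.5 CPM with encapsome. These groups overlapped, and the difference of -0.10 ± 0.113 was within the spread (edgeR adjusted p = 0.593).

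**Figure D3:**
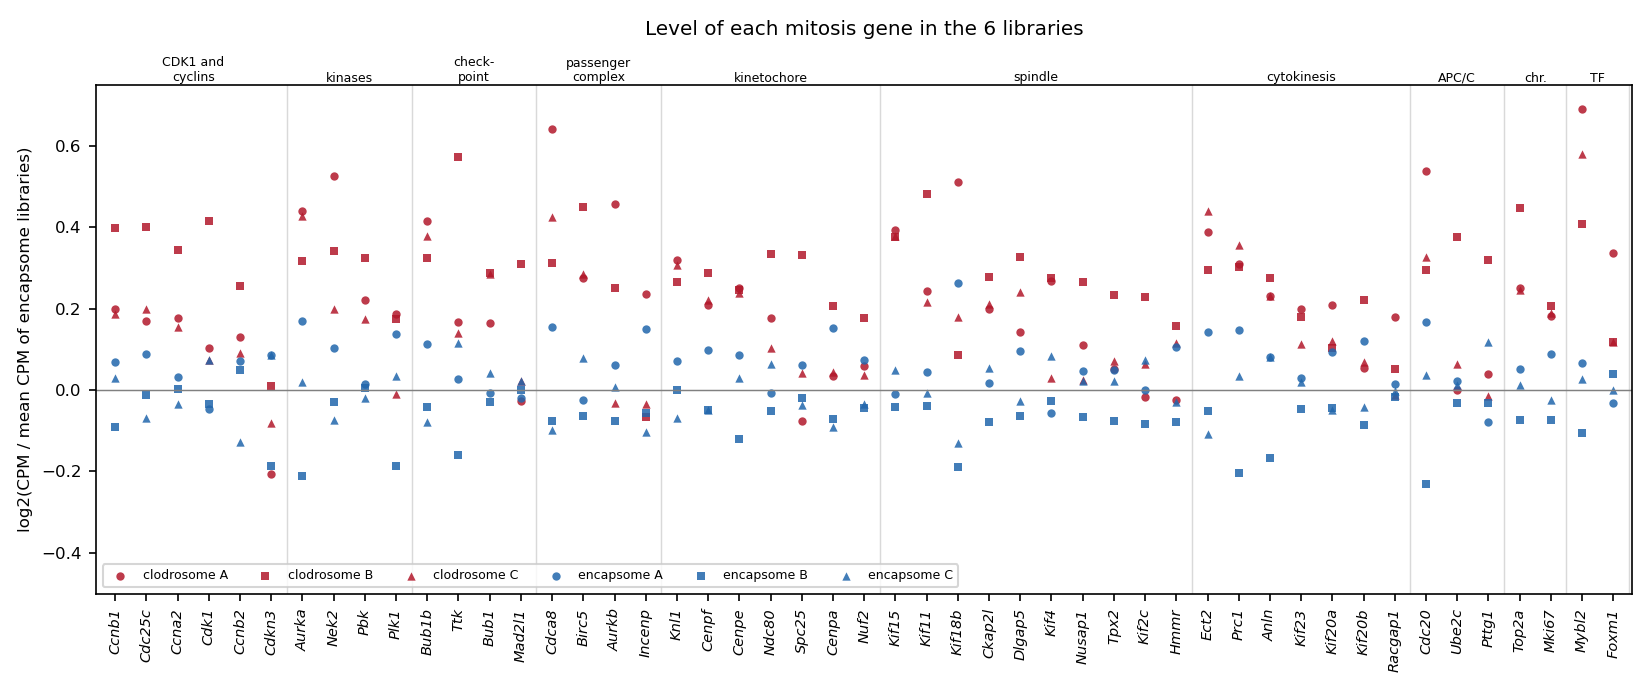
Level of each mitosis gene in each of the 6 libraries, as log2 of CPM over the mean CPM of the 3 encapsome libraries (y axis), by role; red is clodrosome, blue encapsome, and the shape gives the library letter. Red symbols lie above blue ones for 31 genes, and red squares (clodrosome B) are the highest of their group for 30.

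Among the kinases of mitotic entry and the spindle pole, 3 of 4 rose and the median log2 fold change was 0.30. Aurka (ENSMUSG00000027496, chr2:172356190-172370535), which encodes the Aurora A kinase that matures centrosomes and builds the spindle poles, stood at 48.8, 44.8 and 48.4 CPM with clodrosome. With encapsome it stood at 40.5, 31.1 and 36.5 CPM, the lowest value being that of encapsome B. The rise was 0.39 ± 0.100 on the log2 scale (edgeR adjusted p = 0.0213). Nek2, a kinase that splits the centrosome pair, rose by 0.36 (edgeR adjusted p = 0.0354), and Pbk, a mitotic kinase also called TOPK, rose by 0.24 (adjusted p = 0.0457). Plk1, the Polo-like kinase needed from mitotic entry to cytokinesis, did not pass: it was at 37.3, 37.0 and 32.6 CPM with clodrosome and 36.1, 28.8 and 33.6 CPM with encapsome, so the groups overlapped (0.12, edgeR adjusted p = 0.446). The call of Aurka was lost without clodrosome A or C or encapsome B or C (adjusted p 0.0576 to 0.0749). That of Nek2 was lost without clodrosome A (0.112), without any 1 encapsome library (0.0508 to 0.126) and with the term for the rRNA share (0.0535), and that of Pbk under 10 settings, each left-out library among them (up to 0.135).

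In the spindle assembly checkpoint, which delays anaphase while kinetochores are unattached, 2 of 4 genes rose, with a median log2 fold change of 0.27. Bub1b (ENSMUSG00000040084, chr2:118598211-118641591) encodes BubR1, part of the complex that inhibits the APC/C. It measured 67.2, 63.1 and 65.5 CPM with clodrosome and 54.5, 49 and 47.7 CPM with encapsome, a clear gap between the groups. Its log2 fold change was 0.37 ± 0.0764 (edgeR adjusted p = 0.00795), and its adjusted p was at most 0.0418 over all settings. Bub1, the kinase that recruits checkpoint proteins to kinetochores, rose by 0.25 (edgeR adjusted p = 0.0390). Its call was lost under 7 settings, among them without encapsome B (0.130) and without clodrosome C (0.138), and also without clodrosome B or encapsome A or C. Ttk, the checkpoint kinase Mps1, had the largest spread of any member among the clodrosome libraries, with a coefficient of variation of 17.5%. Its values were 36.5, 48.3 and 35.8 CPM with clodrosome and 33.1, 29.1 and 35.2 CPM with encapsome, and 0.30 did not pass (edgeR adjusted p = 0.117), except with no filter on low counts (0.0183). Mad2l1, which binds Cdc20 to restrain the APC/C, was at 0.11 (adjusted p = 0.470).

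The chromosomal passenger complex corrects faulty attachments and later acts at the midzone, and 2 of its 4 genes rose (median log2 fold change 0.29). Cdca8 (ENSMUSG00000028873, chr4:124918465-124939311), which encodes the subunit borealin, was at 55.0, 43.8 and 47.4 CPM with clodrosome and at 39.3, 33.5 and 33.0 CPM with encapsome. Its rise of 0.47 ± 0.106 was the largest after that of Mybl2 among the 49 genes (edgeR adjusted p = 0.0126). Birc5, which encodes survivin, rose by 0.34 (edgeR adjusted p = 0.0142). Without encapsome B neither gene passed (adjusted p 0.0598 for Cdca8 and 0.0659 for Birc5), and Cdca8 also did not pass without encapsome C (0.0558). The catalytic subunit Aurkb (Aurora B) stood at 31.7, 27.5 and 22.6 CPM with clodrosome and 24.1, 21.9 and 23.2 CPM with encapsome. Clodrosome C lay inside the encapsome range, and 0.25 did not pass (edgeR adjusted p = 0.183). The scaffold Incenp had the smallest positive value of all members, 0.05 (adjusted p = 0.757). The 4 subunits of one complex thus ranged from 0.05 to 0.47, and differences between genes were not tested.

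At the centromere and outer kinetochore, 3 of 7 genes rose, with a median of 0.21. Knl1 (ENSMUSG00000027326, chr2:119047119-119105501), the scaffold that gathers checkpoint proteins at the kinetochore, was at 42.7, 41.1 and 42.3 CPM with clodrosome and 35.9, 34.2 and 32.6 CPM with encapsome. The clodrosome libraries lay close together and all above the encapsome libraries, at 0.29 ± 0.0718 (edgeR adjusted p = 0.0176). Cenpe (ENSMUSG00000045328, chr3:135212537-135273611), a kinesin that moves chromosomes to the spindle equator, was at 74.1, 73.8 and 73.5 CPM with clodrosome and 66.1, 57.3 and 63.6 CPM with encapsome. Its log2 fold change was 0.24 ± 0.0741 (edgeR adjusted p = 0.0421). Cenpf, a large kinetochore protein of G2 and mitosis, rose by 0.24 (adjusted p = 0.0427). The microtubule-binding Ndc80 complex did not pass in any measured subunit among the members: Ndc80 stood at 0.21, Nuf2 at 0.09 and Spc25 at 0.10, with edgeR adjusted p from 0.144 to 0.565. Cenpa, the histone H3 variant that marks centromeres, was at 0.09 (adjusted p = 0.497). The call of Knl1 was lost without clodrosome C, encapsome B or encapsome C (adjusted p 0.0643 to 0.0788). Those of Cenpe and Cenpf were lost without these libraries and without clodrosome A (up to 0.155 and 0.150, respectively), and that of Cenpf also without clodrosome B (0.0550). With all 6 libraries, Cenpe did not pass with DESeq2 (0.0503), with clodrosome A thinned (0.0553) or with the term for the rRNA share (0.0508). Cenpf did not pass with DESeq2 (0.0538) or with no filter on low counts (0.0536).

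Among the 10 spindle motors and microtubule proteins, 3 rose and the median was 0.21. Kif15 (ENSMUSG00000036768, chr9:122951046-123018733), a kinesin that helps to keep the spindle bipolar, was at 40.7, 40.2 and 40.3 CPM with clodrosome and at 30.8, 30.1 and 32.1 CPM with encapsome. The libraries of each group agreed closely and the groups were well apart, at 0.38 ± 0.0696 (edgeR adjusted p = 0.00466). The adjusted p of Kif15 was at most 0.0271 over all settings. Kif11 (ENSMUSG00000012443, chr19:37376403-37421859), also called Eg5, is the motor that pushes the spindle poles apart. Its levels were 106, 125 and 104 CPM with clodrosome, highest in clodrosome B, and 92.3, 87.1 and 89.1 CPM with encapsome. It rose by 0.32 ± 0.0851 (edgeR adjusted p = 0.0264), a call lost without any 1 of the encapsome libraries (0.0540 to 0.0991). Ckap2l, a spindle protein, rose by 0.23 (adjusted p = 0.0435), and lost its call under 8 settings that include each left-out library (up to 0.159).

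The other 7 spindle genes did not pass. Kif18b, a kinesin that shortens astral microtubules, had the largest spread of any member among the encapsome libraries, with a coefficient of variation of 17.7%. It was at 27.9, 20.8 and 22.2 CPM with clodrosome and 23.5, 17.2 and 17.9 CPM with encapsome, with library A the highest in each group (0.28, edgeR adjusted p = 0.216). Dlgap5, which stabilises kinetochore fibres, was at 0.23 with groups that did not overlap (adjusted p = 0.0752, and 0.0452 with upper quartile factors). Tpx2, which activates Aurora A on the spindle, also had groups that did not overlap, at 0.12 (adjusted p = 0.301). Kif4, a motor of chromosome arms, stood at 0.19, and 15.1% of its exonic bases are shared with Pdzd11 on the other strand. Nusap1, which bundles microtubules, Kif2c, which dismantles them, and Hmmr, a spindle pole protein, were at 0.13, 0.10 and 0.08, with adjusted p from 0.280 to 0.521.

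In the central spindle and cytokinesis group, 2 of 7 genes rose, with a median of 0.17, and 5 had groups that did not overlap. Ect2 (ENSMUSG00000027699, chr3:27097222-27153878), the exchange factor that activates RhoA at the division furrow, was at 56.5, 53 and 58.6 CPM with clodrosome and 47.7, 41.7 and 40.1 CPM with encapsome. It rose by 0.38 ± 0.0861 (edgeR adjusted p = 0.0133). Prc1 (ENSMUSG00000038943, chr7:80294450-80316259), which crosslinks the microtubules of the central spindle, stood at 75.5, 75.1 and 78.0 CPM against 67.5, 52.9 and 62.4 CPM. The encapsome libraries of Prc1 were spread more widely than the clodrosome ones, with encapsome B the lowest, and the rise was 0.32 ± 0.0924 (edgeR adjusted p = 0.0340). On the other strand, Rccd1 shares 11.1% of the exonic bases of Prc1. The call of Ect2 was lost without clodrosome C, encapsome B or encapsome C (0.0602 to 0.0609), and that of Prc1 without these and without clodrosome A (0.0653 to 0.110).

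Anln, which encodes the furrow protein anillin, was at 162, 167 and 162 CPM with clodrosome and 146, 123 and 146 CPM with encapsome. Its 0.25 came near the threshold (edgeR adjusted p = 0.0638), and it passed with upper quartile factors (0.0400) and with no filter on low counts (0.0420). Kif23 and Racgap1, which together form the centralspindlin complex, were at 0.17 (adjusted p = 0.121, groups that did not overlap) and 0.08 (0.504, groups that overlapped). The cytokinesis kinesins Kif20a and Kif20b stood at 0.14 and 0.12, with adjusted p of 0.199 and 0.375. For Kif20a, 29.3% of the exonic bases are shared with Cdc23 on the other strand, the highest share among the members.

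Of the 3 genes around the APC/C, 1 rose. Cdc20 (ENSMUSG00000006398, chr4:118432901-118437352), the activator that the checkpoint inhibits, was at 84.3, 71.3 and 72.9 CPM with clodrosome and 65.2, 49.5 and 59.6 CPM with encapsome. Its rise was 0.39 ± 0.111 (edgeR adjusted p = 0.0327), and the call was lost without clodrosome A or C or encapsome B or C (0.0681 to 0.109). Ube2c, the ubiquitin-conjugating enzyme of the APC/C, was at 0.15 (adjusted p = 0.316), and Pttg1, which encodes securin, at 0.12 (adjusted p = 0.512). Both had groups that overlapped. Of the exonic bases of Ube2c, 22.8% are shared with Tnnc2, a muscle gene, on the other strand.

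Both genes of chromosome structure had groups that did not overlap, and 1 was called. Top2a (ENSMUSG00000020914, chr11:98992943-99024189), the topoisomerase that untangles sister chromatids, was the most abundant member, at 40.2 RPKM. It measured 384, 440 and 383 CPM with clodrosome and 335, 307 and 326 CPM with encapsome, with a rise of 0.32 ± 0.0850 (edgeR adjusted p = 0.0266). The call was lost without any 1 of the encapsome libraries (0.0538 to 0.111). Mki67, which coats mitotic chromosomes and is the usual proliferation marker Ki-67, was at 338, 344 and 340 CPM with clodrosome and 317, 283 and 293 CPM with encapsome. Its 0.19 had an unadjusted p of 0.0284 and did not pass after adjustment (edgeR adjusted p = 0.0947).

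Of the transcription factors that switch on these genes, Mybl2 rose and Foxm1 did not pass. Mybl2 (ENSMUSG00000017861, chr2:163054687-163084688), which encodes the B-MYB partner of MuvB, was at 34.2, 28.1 and 31.7 CPM with clodrosome and 22.2, 19.7 and 21.6 CPM with encapsome. The lowest clodrosome library was thus well above the highest encapsome library. Its log2 fold change of 0.57 ± 0.0974, a fold of 1.48, was the largest of the 49 genes, with the smallest adjusted p (0.00336, edgeR), and the adjusted p stayed at or under 0.0213 in all settings. Foxm1 was at 27.9, 24 and 24 CPM with clodrosome and 21.6, 22.7 and 22.1 CPM with encapsome, groups that did not overlap. Its 0.20 had an edgeR adjusted p of 0.151.

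Across the members, mean levels over the 6 libraries ran from 2.86 to 40.2 RPKM, with a median of 9.21, and 42 of the 49 were at 5 RPKM or more. After Top2a the highest were Cdc20 at 35.9 RPKM and Mki67 at 31.7 RPKM, and the lowest after Cdc25c were Kif15 at 3.24 RPKM and Ndc80 at 3.32 RPKM. The median coefficient of variation was 7.28% among the clodrosome and 5.66% among the encapsome libraries. Libraries of a group also differed in the same direction over many members. Encapsome A was the highest of its group for 36 members and encapsome B the lowest for 31, while clodrosome B was the highest of its group for 30. On the log2 scale, relative to each member's mean, the average was 0.11, 0.17 and 0.06 in clodrosome A, B and C and -0.04, -0.18 and -0.11 in encapsome A, B and C. Of all 6 libraries, a clodrosome library was the highest for 48 members and an encapsome library the lowest for 46.

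Other genes that act beside the members were also tested. Over 9 further lists, which hold 169 genes and none of the 49, edgeR called 42 of 168 tested genes higher (25.0%, against 9.41% of all tested genes) and 4 lower (2.38%, against 13.0%), with a median log2 fold change of 0.21. Of the DNA replication genes, 18 of 32 were higher (56.2%) and 0 lower (0 also at an unadjusted p, and 0 by DESeq2 and by limma-voom), with a median of 0.33. The helicase subunits Mcm7 and Mcm5 rose by 0.57 and 0.43, the replication initiation factor Mcm10 by 0.52 and the thymidine kinase Tk1 by 0.35, and all 4 were called under every setting. Condensin, which compacts mitotic chromosomes, had 5 of 8 subunit genes higher (62.5%) with a median of 0.25, among them Ncapg at 0.44, Ncaph at 0.38, Smc2 at 0.27 and Smc4 at 0.23. Without encapsome B these 4 condensin genes did not pass (edgeR adjusted p 0.0548, 0.127, 0.110 and 0.159), and each also lost its call without encapsome C.

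In cohesin, its protectors and separase, 2 of 12 genes rose (16.7%), with a median of 0.11: Sgo1, the shugoshin that shields centromeric cohesion, by 0.36 and the cohesin subunit Smc3 by 0.21. Of 29 other centromere and kinetochore genes 4 rose (13.8%, near the 9.41% of all tested genes, with a median of 0.23), Zw10 and Cenph each by 0.40, Zwilch by 0.38 and Spc24 by 0.30. Zw10 and Zwilch are subunits of the RZZ complex, which brings dynein to kinetochores, and Spc24 is the partner of Spc25 in the Ndc80 complex. Of 32 other mitotic regulators and spindle genes 7 rose (21.9%, median 0.22), and the 4 with the smallest p were Bora, the Aurora A cofactor that helps to activate Plk1, at 0.56, Psrc1 at 0.51, Spag5 at 0.42 and the chromokinesin Kif22 at 0.54. Bora, Psrc1 and Spag5 were called under every setting. Without encapsome B the calls of Sgo1, Smc3, Zwilch, Cenph, Spc24, Zw10 and Kif22 were lost, with edgeR adjusted p from 0.0528 to 0.156. Without clodrosome C the calls of these genes other than Cenph were lost too, and without clodrosome A those other than Sgo1 and Zw10. Smc3 also did not pass with DESeq2 (0.0617) or with no filter on low counts (0.0991), both Benjamini-Hochberg adjusted.

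The remaining subunits and regulators of the APC/C had differences of both signs. Of 15 such genes, edgeR, DESeq2 and limma-voom each called 0 higher (2 at an unadjusted p under 0.05), and 1 was called lower, Anapc13, a small APC/C subunit, at -0.31 ± 0.0841. These shares, 0% higher and 6.67% lower, rest on few genes. They stand beside 9.41% of all tested genes called higher and 13.0% called lower. The median log2 fold change of these 15 was 0.03, with 9 positive and 6 negative values between -0.31 and 0.27. Anapc13 was at 17.9, 19.0 and 19.7 CPM with clodrosome and 22.7, 23.9 and 23.3 CPM with encapsome, groups that did not overlap (edgeR adjusted p = 0.0297). Its call was lost without any 1 library other than clodrosome B (up to 0.110) and without the filter on low counts (0.0828).

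**Figure D4:**
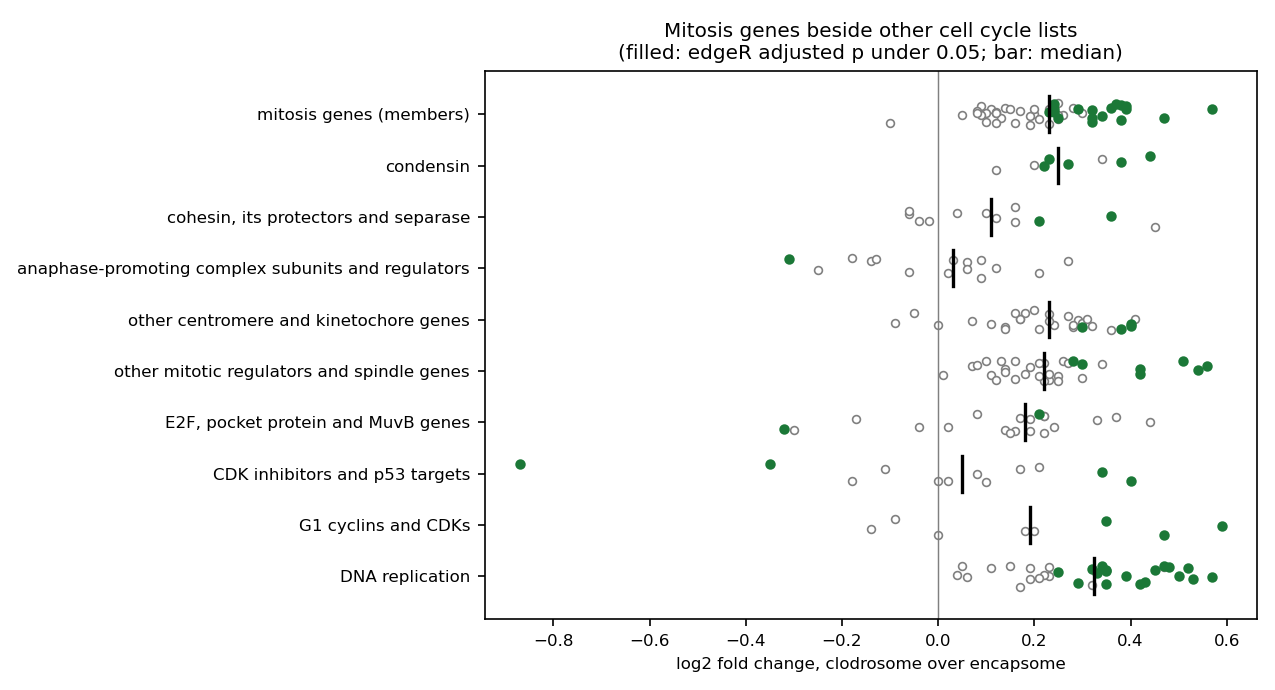
Log2 fold change, clodrosome over encapsome, of each mitosis gene and of each gene in 9 other cell cycle lists; filled points are called by edgeR and the black bar is the list's median. The medians run from 0.03 for APC/C subunits to 0.33 for DNA replication, with 0.23 for the mitosis genes.

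The composition of the skin RNA also differed between the groups. The marker counts stand beside 9.41% of all tested genes called higher and 13.0% called lower. T and NK cell markers (7.69% higher) and hair matrix and shaft markers (12.5% higher) were near the first of these shares. Of 10 macrophage markers, 10 were lower with clodrosome (summed level 1786 to 2836 CPM against 6748 to 7473 CPM), so macrophage RNA remained, and 7 of 10 fibroblast markers were lower (3336 to 5458 CPM against 9438 to 10826 CPM). Among basal keratinocyte markers 7 of 10 rose, among them Krt5 at 0.66 and Trp63 at 0.53, with sums of 24632, 25283 and 24991 CPM in clodrosome A, B and C and 20818, 16801 and 18541 CPM in encapsome A, B and C. Activated keratinocyte markers had 4 of 8 higher, 21820 to 23251 CPM against 16246 to 18754 CPM. Of the suprabasal markers 2 of 10 were higher and 4 lower, with overlapping sums (3378 to 3755 CPM against 3313 to 3968 CPM). Skeletal muscle markers had 7 of 10 higher (5033 to 6647 CPM against 3338 to 4085 CPM) and blood endothelium 4 of 8 (568 to 626 CPM against 418 to 477 CPM). T and NK cell markers (1 of 13 higher, 48.7 to 59.3 CPM against 50.5 to 57.6 CPM), neutrophil markers (2 of 8 higher, 1469 to 2071 CPM against 1070 to 1723 CPM) and hair matrix and shaft markers (1 of 8 tested higher, 51.6 to 63.5 CPM against 57.1 to 74.2 CPM) had sums that overlapped. S100a8 and S100a9 are in both the neutrophil and the activated keratinocyte list and make up most of the neutrophil sum. The neutrophil sum is therefore not a separate measure of neutrophils, and its share called higher was 25.0% on 8 genes. The hair keratins Krt25, Krt31, Krt33a, Krt34 and Krt35 were at 0 in some library. Of the 5 erythroid markers tested, edgeR called 4 lower and DESeq2 and limma-voom 0. The summed level of these 5 was 168, 115 and 196 CPM in clodrosome A, B and C and 236, 677 and 234 CPM in encapsome A, B and C. The groups did not overlap, and encapsome B stood far above the other libraries. Of the mitosis genes, 3 were called without encapsome B, 4 without encapsome C and 12 without encapsome A. The part of these shifts in the mitosis genes' result was not tested.

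Set beside the basal keratinocyte sum, the mitosis genes were lower with clodrosome. Summed over the 49 genes the level was 3235, 3432 and 3170 CPM with clodrosome (mean 3279 ± 136, SD, n = 3) and 2919, 2650 and 2794 CPM with encapsome (2788 ± 134), a ratio of 1.18. Per 100 CPM of basal keratinocyte markers it was 13.1 ± 0.444 CPM with clodrosome and 15 ± 0.883 CPM with encapsome, a ratio of 0.878, with the groups not overlapping. In the encapsome group the mitosis sum and the basal sum had the same order of libraries, A above C above B, and in the clodrosome group the order differed, with mitosis B above A above C and basal B above C above A. Per 100 CPM of the 32 DNA replication genes the mitosis genes stood at 164 ± 5.52 CPM against 173 ± 3.52 CPM, a ratio of 0.946. These sums and ratios are descriptions, and the choice of markers sets their size and can set their direction. Krt5 and Krt14 made up 86.4% to 87.7% of the basal sum. Of the 10 basal genes, 8 had a log2 fold change above the mitosis genes' median of 0.23, and Itga6 (0.13) and Itgb4 (0.05) were below it.

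**Figure D5:**
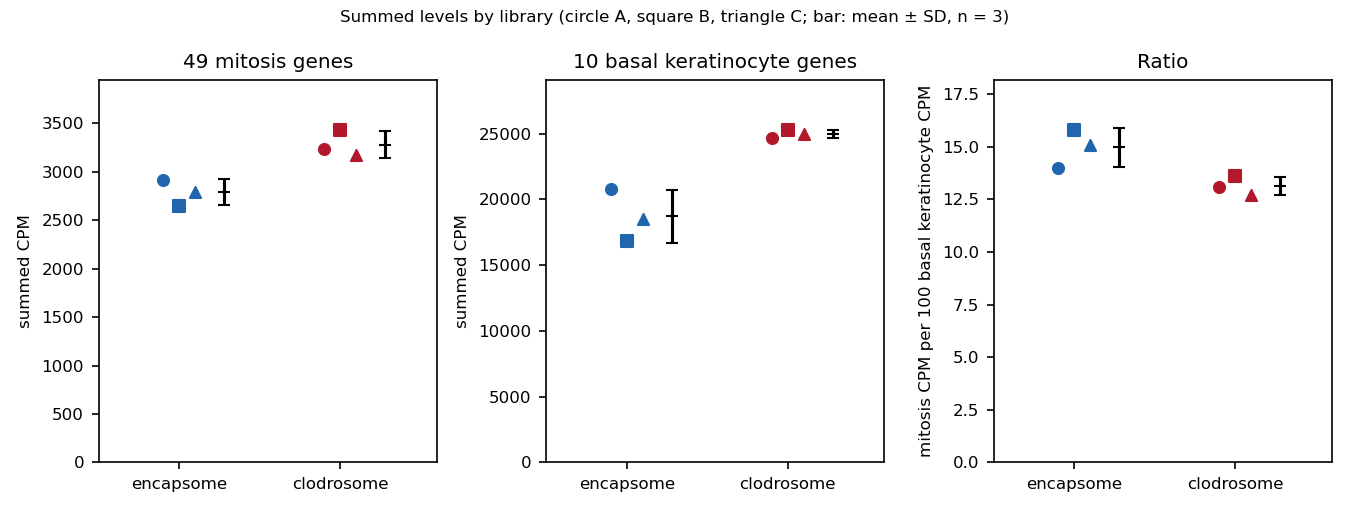
Summed CPM of the 49 mitosis genes, summed CPM of 10 basal keratinocyte genes and their ratio in each library; symbols give the library letter and bars the mean ± SD (n = 3). The first and second panels are higher with clodrosome, while the ratio is lower, at 13.1 against 15.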

How the data were processed

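Whole dorsal skin RNA of 6 mouse libraries was measured, 3 clodrosome and 3 encapsome. The deposited values are read counts per gene, made per the file headers by featureCounts 1.6.2 from the Ensembl 102 gene models of GRCm38. The header's command keeps that tool's defaults, so each read end is a count, strand plays no part, and multi-mapped or multi-gene reads are dropped, which lowers near-identical and overlapping genes. Per the submitters' processing notes, Trimmomatic 0.36, HISAT2 2.2.1, StringTie 2.2.1 and DESeq2 1.34.0 were also used, on mm10. Columns were matched to groups by name, and 0 other columns of sample values were present. Symbols came from the reference name table for 55141 of 55487 identifiers (99.4%).

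From the counts, edgeR 4.0.16 (R 4.3.3) computed TMM factors (0.982 to 1.02), applied filterByExpr (minimum count 10, minimum total 15) and ran glmQLFit and glmQLFTest with group as the only term. Benjamini-Hochberg adjustment covered the 17988 genes kept. SE is the absolute log2 fold change over the square root of F. The procedure was also run on simulated counts, with changes larger than those of the members and a common spread for all genes. That run does not show how well changes of the members' size are found. The alternatives were other scaling factors, no filter, DESeq2 1.42.0, limma-voom (limma 3.58.1), leaving out each library and, added after seeing the data, thinning clodrosome A and a term for the rRNA share.

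The members and all lists were chosen with earlier results of these data known. Full values are given for the member with the smallest p of each role (and the next in roles of 6 or more), the 2 highest and 2 lowest by RPKM, and members of opposite sign to the median; up to 4 called genes by p are named from each further list. Values of other members given by library were chosen after they were seen. No 2 libraries of a group agreed within sampling noise (chi-square per gene 9.93 to 53.0). RefSeq promoter windows were read in the direction of the gene. The result of 1 marker gene is not reported here.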

Additional observations from a re-analysis of the deposited data

How the results depend on the processing

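No paired analysis was possible because the count columns carry numbers that differ from the replicate numbers in the titles. Leaving out 1 library at a time, edgeR called 3 to 14 members higher and 0 lower, 821 to 1964 of all tested genes higher, 1656 to 2432 lower, and 14 to 39 of the other pathway genes higher and 1 to 3 lower. Under the other scalings, without the filter, with DESeq2 or limma-voom, with clodrosome A thinned and with the term for the rRNA share, the members called higher numbered 14 to 22, each count within 1.5 times that with the planned fit, and 0 were lower. The members' median log2 fold change stayed between 0.19 and 0.26 over all 13 settings, while the median of all tested genes lay between -0.00 and 0.08. No called gene among the members or the further lists changed direction. Depth was not limiting for the members, whose lowest count was 321. The number of libraries limits the precision.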

Other observations

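Further lists that act around the entry into the cell cycle stand beside 9.41% of all tested genes called higher and 13.0% called lower. Of 8 G1 cyclins and CDKs, 3 were higher with clodrosome (37.5%) and 0 lower, with a median log2 fold change of 0.19. None was lower at an unadjusted p under 0.05, or by DESeq2 or limma-voom. Ccnd1, which encodes cyclin D1, was at 128, 96.1 and 113 CPM with clodrosome and 80.5, 65.4 and 78.8 CPM with encapsome, a rise of 0.59 ± 0.118 (edgeR adjusted p = 0.00744). Ccne1, cyclin E1, rose by 0.47 from 18.6, 17.9 and 18.5 CPM with encapsome to 25.1, 24.9 and 26.1 CPM with clodrosome (edgeR adjusted p = 0.00330), and Cdk2, its kinase partner, rose by 0.35 (0.0124). Ccnd1 and Ccne1 were called under all 13 settings, and Cdk2 was not called without clodrosome C (0.0577).

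Among 20 E2F, pocket protein and MuvB genes, 1 was higher and 1 lower, with a median of 0.18. Rb1, which encodes the retinoblastoma protein that restrains E2F, was at 40.1, 38.0 and 41.5 CPM with clodrosome and 51.3, 49.7 and 48.5 CPM with encapsome. Its log2 fold change was -0.32 ± 0.0711 (edgeR adjusted p = 0.0115), and it was called under all 13 settings. Tfdp1, the dimer partner of E2F, rose by 0.21 (0.0480), a call lost under 8 settings, with an adjusted p of up to 0.171 without encapsome B and also without clodrosome A or C or encapsome A or C.

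Of 12 tested CDK inhibitors and p53 targets, 2 were higher and 2 lower, with a median of 0.05. These are 16.7% each, on few genes and near the shares of all tested genes. Cdkn1a, which encodes p21, rose by 0.40 ± 0.0976, at 237, 197 and 248 CPM against 182, 163 and 174 CPM (edgeR adjusted p = 0.0183). Btg2, an antiproliferative gene, rose by 0.34 (0.0463). Cdkn1c, which encodes p57, fell by 0.87 ± 0.246, at 5.56, 3.98 and 6.44 CPM against 13.1, 6.89 and 9.40 CPM (0.0324), and Sesn1, a p53 target, fell by 0.35 (0.0270). The 4 calls were each lost under 3 to 5 settings that left out a library. That of Cdkn1a was lost without clodrosome C (0.0869), encapsome B or encapsome C, and that of Btg2 without encapsome C (0.165), encapsome A or any 1 clodrosome library. That of Cdkn1c was lost without encapsome A (0.109), encapsome C, clodrosome A or clodrosome B, and that of Sesn1 without clodrosome C (0.0922), clodrosome A, encapsome A or encapsome B.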
